A study of Arabidopsis thaliana with 12 samples.

Results

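The regions described here are places on the nuclear chromosomes of Arabidopsis where a tagged DELLA protein gave a chromatin immunoprecipitation (ChIP) peak in inflorescences that lacked functional CUC2. They are merged peak intervals of the gai-YPet cuc2-1 genotype that held a peak of both replicate lists and touched no peak of untagged plants by even 1 bp. This left 3187 regions of the 8110 merged nuclear intervals of the mutant lists (39.3%), and of 12787 merged nuclear intervals over all 6 lists of the study. The genotype is labelled pGAI:gai∆17-3xYPet cuc2-1. It carries the transgene line named L306, in which the GAI promoter drives a GAI protein that lacks 17 residues and bears 3xYPet, a yellow fluorescent tag, together with the cuc2-1 mutation. The control is Ler, the Landsberg erecta accession that both genotypes share, with no transgene. The other tagged genotype, pGAI:gai∆17-3xYPet with CUC2 intact (gai-YPet), was not used to choose the regions. Its lists enter the count over all 6 lists and show whether a region also had a peak there, and at what rank. They also give some peak counts to set beside those of the other genotypes. Each genotype had 2 independent biological replicates of 1.8 g of inflorescences, from soil-grown plants (22 °C, 16 h days and 8 h nights). Open flowers and the oldest buds had been removed, and an antibody to GFP precipitated the tagged protein. Both tagged genotypes rest on this 1 transgenic line, and the labels name no lesion in the resident GAI gene or in the other DELLA genes.

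DELLA proteins are nuclear repressors of gibberellin responses. Gibberellin binds the receptor GID1, the complex takes hold of the DELLA protein through its DELLA motif, and the F-box protein SLY1 directs it to degradation, so a protein without that motif persists when gibberellin is present. DELLA proteins have no DNA-binding domain of the classical kind and reach chromatin through transcription factors such as the IDD zinc fingers, the PIF proteins and the TCP and SPL families. CUC2 is a NAC transcription factor that, with CUC1 and CUC3, sets the boundaries between organs and helps place ovule primordia along the placenta of the pistil, where gibberellin lowers ovule number. The comparison asks where the DELLA protein still sits on chromatin when CUC2 is not functional.

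The lists held few nuclear peaks in Ler and many in the mutant. Mutant replicate 1 held 7890 nuclear peaks and replicate 2 held 3582, whereas the Ler lists held 178 and 397. Both mutant lists were longer than both Ler lists, with a ratio of mean lengths of 20 (exact permutation test over the 4 lists, two-sided p = 0.333, which is the smallest p that 2 lists against 2 allow). The number of reads behind a list is not known, and depth alone can change how many peaks are called. Each peak carries a score given by the authors, which equals 10 times the −log10 of its q-value without the decimals, and a fold enrichment. Scores depend on depth, so strength is given below as a rank within a list, 1 being the strongest peak, or as a percentile from 100 for the strongest to 0 for the weakest. The strength of a region is the mean of its percentiles in both mutant lists.

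Few regions were lost to the control. Of 3231 regions with a peak of both mutant lists, 44 (1.36%) touched a Ler peak, 31 of them a peak of Ler replicate 1 only, 12 of Ler replicate 2 only and 1 of both. The smallest overlap with a Ler peak among the removed regions was 74 bp. At the other side of the rule, 9 kept regions lay within 1000 bp of a Ler peak, the closest at 9 bp. That closest region lay 2348 bp from AT5G60840 (chromosome 5, 24476610 to 24477449, build TAIR10), with scores of 254 and 152 in mutant replicates 1 and 2. The next lay 277 bp from a Ler peak and nearest to AT2G01023, with scores of 32 and 41, and the third lay 351 bp from one, nearest to AT1G43760, with scores of 21 and 58.

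The removed regions included a few of the strongest mutant peaks. The strongest lay inside TPPI, a trehalose phosphate phosphatase gene, with scores of 1897 and 1465 in the mutant lists (ranks 12 and 3). Its Ler peak, in replicate 2 only, had a score of 35 and rank 359. The next lay 1110 bp from WRKY22, a factor of immune responses, with mutant scores of 1557 and 1120 and a Ler score of 167 in replicate 2. In the third, 386 bp from the MADS-box gene AGL44, the Ler replicate 2 score of 766 was the highest of that list, and lay between the mutant scores of 976 and 617. Another removed region, 55 bp from LBD41, had mutant scores of 638 and 554 and a Ler replicate 2 score of 522, and was named after its values were seen. The removed regions thus ranged from a control peak near the foot of its list to the strongest one of it.

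The strength of the kept regions was similar in order in both mutant lists. Spearman's rho of the scores was 0.82 over the 3187 regions, which share libraries and chromatin and are not replicates, so no p is given. Of the strongest 20 regions in each list 14 were the same, of the strongest 100 they shared 75, and of the strongest 300 they shared 238. The positions were close as well, with a median of 25 bp between the summits of both lists and 76.9% of regions within 50 bp. That distance was 16 bp in the strongest 10% of the regions and 44.5 bp in the weakest. Nearly all regions, 3072 of 3187, held exactly 1 peak of each list, and the median overlap of the lists in a region was 300 bp. The smallest overlap was 44 bp, in a weak region 536 bp from AT2G07702, and 5 regions overlapped by less than 100 bp. Just outside the rule, 15 intervals of replicate 1 lay within 100 bp of a replicate 2 peak without touching it, the nearest at 16 bp.

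**Figure D1:**
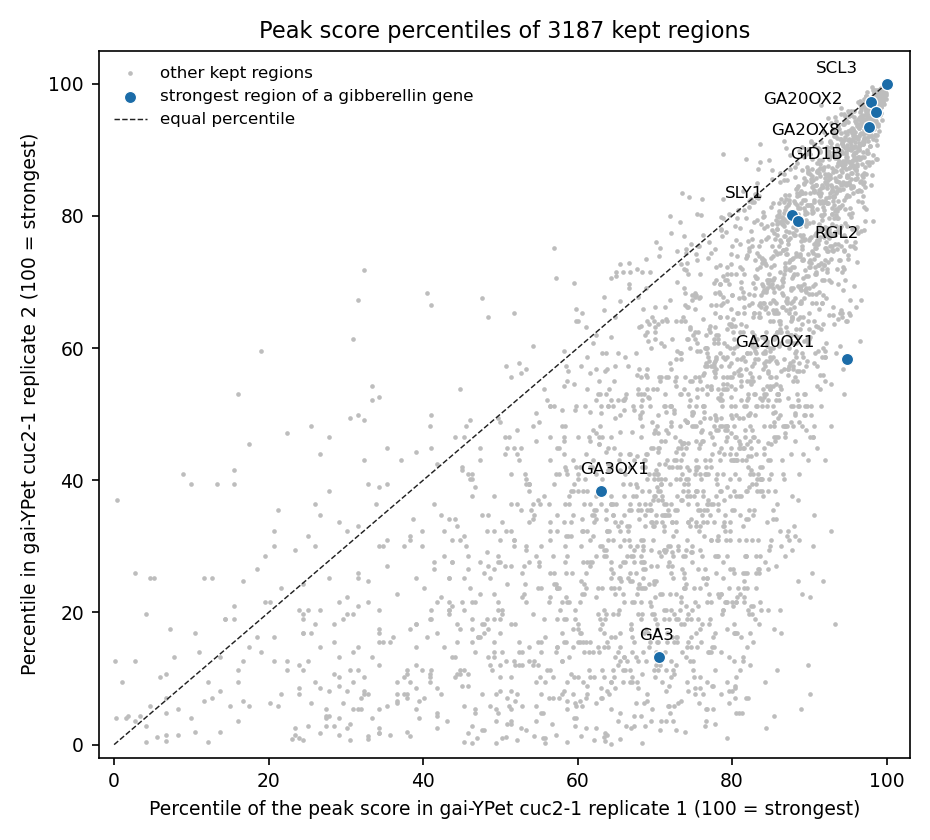
Each grey point is 1 of the 3187 kept regions, placed by the percentile of its strongest peak in mutant replicate 1 (x axis) and replicate 2 (y axis), where 100 is the strongest peak of a list. Blue points are the strongest regions of the 9 bound gibberellin genes, and most points lie under the dashed line of equal percentiles, as 2979 regions had the higher percentile in replicate 1.

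The kept regions were not placed alike within the lists, which differ in length. Their median percentile was 79.1 in replicate 1 and 52.1 in replicate 2, and 88.1% of them lay in the stronger 50% of replicate 1 against 52.4% for replicate 2. The median fold of the kept regions was 4.03 in replicate 1 and 2.72 in replicate 2. In replicate 1, 99.2% of the strongest 10% of peaks lay in a kept region (Wilson 95% interval 98.4 to 99.7), 53.9% of the fourth 10% of peaks (50.4 to 57.3) and 3.8% of the weakest 10% (2.68 to 5.38). In replicate 2 the share was 98.1% in the strongest 10% (96.0 to 99.1) and still 76.0% in the weakest (71.3 to 80.1). These intervals cover counting error only. The 4651 intervals seen in replicate 1 only had a median peak score of 91, and the 228 seen in replicate 2 only had one of 77, against medians of 370 and 126 for the kept regions. The set described here is thus nearly the whole of the shorter list and the upper part of the longer one.

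**Figure D2:**
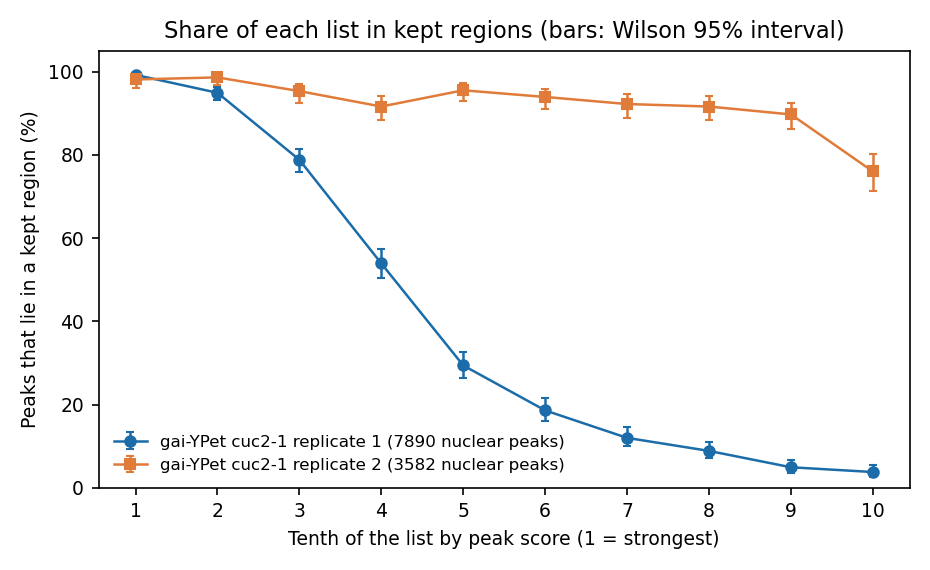
The share of nuclear peaks that lie in a kept region (y axis, percent) is plotted against its place in the list, in steps of 10% by peak score (x axis, 1 is the strongest) for both mutant lists, with Wilson 95% intervals as bars. Replicate 1 passes from 99.2% to 3.8%, and replicate 2 from 98.1% to 76.0%.

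The strongest region of all lay on chromosome 1 from 18679689 to 18681600, beside SCL3 and DWF5. SCL3, a member of the GRAS family like the DELLA proteins, acts to promote the gibberellin response. DWF5 makes sterols that feed into brassinosteroids. The scores of the region were 2265 and 1707, which ranked 3 and 1 in the mutant lists, and its summit lay 741 bp from SCL3 and 891 bp from DWF5. No Ler peak lay within 147 kb of it (147561 bp to the nearest). The second region lay inside CSLA01, a cellulose synthase-like gene, on chromosome 4 from 9347422 to 9348222, with scores of 2120 and 1532 (ranks 6 and 2). The third lay 837 bp from AT4G04630, with scores of 2310 and 1331 (ranks 1 and 5).

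The genes of the next regions among the strongest 20 had varied roles. DREB1A, a regulator of cold responses, had a summit at 60 bp with scores of 2274 and 1048 (ranks 2 and 20). IAMT1, which methylates auxin, had one at 140 bp with scores of 1757 and 1120, and DFL2, a gene of the GH3 family, had one inside it with 1824 and 1243, which also lay 351 bp from AT4G03410. GRF8, a growth-regulating factor, had a summit inside it with scores of 1888 and 1084. SPL4, a promoter of flowering, had one 680 bp away with 1838 and 1006. BT4, which encodes a BTB and TAZ domain protein, and its neighbour FH6, a formin gene, shared a region with scores of 1795 and 1159. The aquaporin gene PIP2E had a summit inside it with scores of 1710 and 1103. TRM27, of a family of microtubule-associated proteins, had 1801 and 1011, likewise inside.

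The rest of the 20 were less well known genes or lay farther from genes. Summits lay inside AT4G19380 (scores 1940 and 1407), AT1G25510 (1997 and 1141) and AT1G79120 (1876 and 1163), and 118 bp from AT4G27240 (1728 and 1201). In 5 of the 20 regions no coding gene lay within 1000 bp. Their nearest genes were AT4G15430 at 1418 bp, ML4, an RNA-binding protein of the Mei2-like type, at 1515 bp, the arginyltransferase gene ATE1 at 1089 bp, the ubiquitin ligase gene LUL3 at 2574 bp and the glycosyltransferase gene LGT8 at 1338 bp. All 20 also had a peak in both gai-YPet lists. The lowest rank there was 51 in gai-YPet replicate 1, at GRF8, and 86 in replicate 2, at DFL2.

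Of the weakest 5 regions 3 lay farther than 1000 bp from a coding gene. The weakest of all, inside AT3G05470, had scores of 22 and 41 (ranks 7870 and 3439.5). The other four lay nearest to AT2G07641, AT2G01023, AT4G06655 and AT2G07702, at 536 to 6346 bp, and their scores ranged from 26 to 42 over both lists. The regions with the largest gaps in percentile between the lists come next. Strength is the mean of both percentiles, so a large gap by itself keeps such a region from the top. ZAP1, a WRKY factor, had a score of 575 (rank 877) in replicate 1 and 44 (rank 3391.5) in replicate 2. AT5G17760 had 612 and 49, AT3G57830 had 461 and 37, the region of AT5G10200 and AT5G10190 had 480 and 42, and the region nearest to AT1G22040 had 374 and 30. In the other direction, a region 1510 bp from CUC3 had a score of 23 (rank 7863) in replicate 1 and 95 (rank 2255) in replicate 2, and is not the region inside CUC3 described below. AT3G01490 had 68 and 145, CYP89A9, a P450 gene of chlorophyll breakdown, had 93 and 187, the region nearest to AT4G08760 had 63 and 129, and one 1717 bp from LBD4 had 91 and 169.

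Most kept regions lay beside genes or in them, and the Ler peaks did not. The summit lay inside a protein-coding gene in 1010 regions (31.7%), outside but within 1000 bp of 1 gene in 971 (30.5%), within 1000 bp of several in 397 (12.5%) and farther from any in 809 (25.4%). The share of the genome in each of these classes is not given, so the shares do not show a preference for genes. The gene table gives no strand, so the side before a gene's start is not told from the side after its end. Over all nuclear peaks, 29.7% and 28.4% of the mutant lists and 89.3% and 82.9% of the Ler lists lay farther than 1000 bp from a coding gene (exact permutation test over the 4 lists, two-sided p = 0.333, the smallest possible). The groups did not overlap. The median number of coding genes within 50 kb to each side of a peak was 27 in both mutant lists and 3 and 2 in the Ler lists (exact permutation test, two-sided p = 0.333, the smallest possible), so the control peaks lay in gene-poor stretches.

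Weaker regions lay inside genes more often. In the strongest 10% of the kept regions 28.5% of summits were inside a gene, and in the weakest 10% 40.9% were. For summits outside genes the median distance to the nearest coding gene was 675 bp, and 158 regions (4.96%) lay more than 3000 bp from any. Of the 809 regions farther than 1000 bp from a coding gene, 218 (26.9%) were within 1000 bp of a gene of another kind, most often a long non-coding RNA (129 regions) and in 11 cases a miRNA. The 5 chromosomes held 11.1 to 13.0 kept regions per 100 coding genes.

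**Figure D3:**
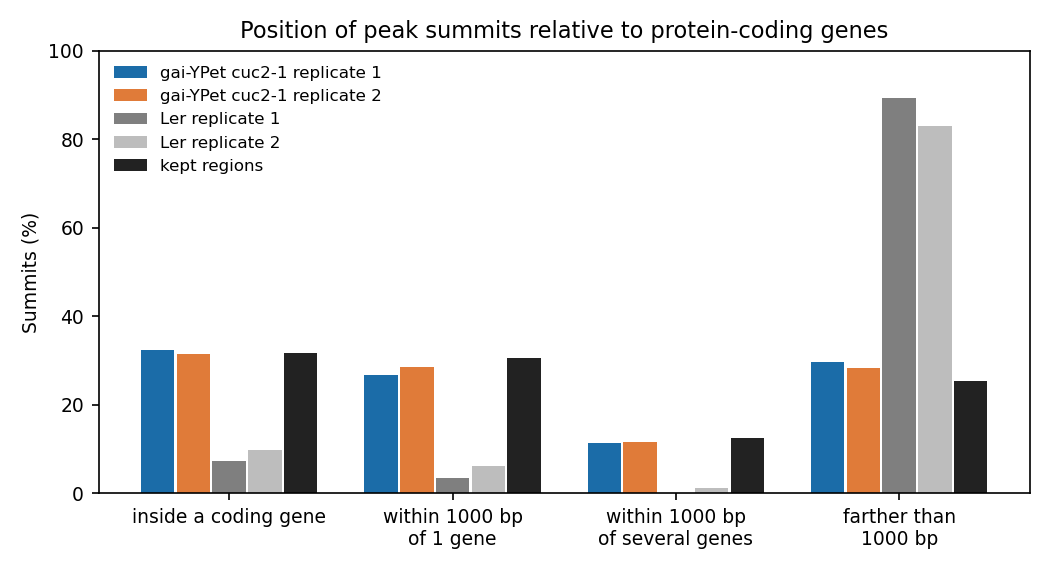
Bars give the percent of summits (y axis) in 4 positions relative to coding genes (x axis) for the nuclear peaks of both mutant lists, both Ler lists and the kept regions. The Ler bars stand at 89.3% and 82.9% in the class farther than 1000 bp from a gene, where the mutant bars are at 29.7% and 28.4%.

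A gene is called bound here where a kept region had its summit inside the gene or at most 1000 bp away. This held for 2780 of 27444 nuclear coding genes (10.1%), the background for each gene list below. One region can count for neighbouring genes, and being bound says nothing of a gene's expression. The tissue was whole inflorescences, so weak binding in many cells and strong binding in few cannot be told apart. The number was 5696 (20.8% of coding genes, the background to set beside the counts given below for that case) with mutant replicate 2 left out, when peaks of 1 list suffice, and 4927 with a window of 3000 bp. The summit lay inside 875 of the bound genes, and their median strength was 66.2. Counts of list members are descriptions to be read against 10.1%, with no test, since the lists were chosen with earlier results of these data known.

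Genes of gibberellin synthesis, inactivation and signalling were bound in 9 of 34 cases (26.5%), with a median strength of 83.9. Every role in the list held at least 1 bound gene except the methyltransferases, while most members had no kept region. A further 9 of the 34 genes had a peak in mutant replicate 1 only and 15 had none in either list. With mutant replicate 2 left out, 19 of the 34 were bound. Among the receptors GID1B had 4 peaks in reach in replicate 1 and 3 in replicate 2, with highest scores of 1165 and 460 (ranks 185 and 238.5). GID1C had a score of 144 in replicate 1 and no peak in replicate 2, and GID1A had no peak in either list. Of the DELLA genes, RGL2 was bound 82 bp from the gene with scores of 557 and 233. RGL1 had a peak in replicate 1 only, with a score of 134, and RGA and RGL3 had none.

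GAI itself had a peak in both mutant lists and was not counted as bound. Its scores were 230 and 216 and its folds 1.84 and 1.93 (chromosome 1, 5147787 to 5148370), and a Ler replicate 2 peak with a score of 62 touched the region. The transgene holds GAI sequence, which the lists do not tell from the resident gene. Of the F-box genes that direct DELLA proteins to degradation, SLY1 was bound inside the gene with scores of 536 and 241, and SNE had no peak. SCL3, given above, was the strongest gene of the list.

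Each of the 3 classes of gibberellin oxidase had bound and unbound members. GA20-oxidases make the direct precursors of active gibberellins, and GA20OX2 had scores of 1208 and 660 at 406 bp (ranks 162 and 97, chromosome 5, 21054469 to 21055009). GA20OX1 had scores of 865 and 142 inside the gene, GA20OX3 a score of 197 in replicate 1 only, and GA20OX4 and GA20OX5 no peak. GA3-oxidases carry out the activating step, and only GA3OX1 of the 4 was bound, at 588 bp with scores of 214 and 97, while GA3OX2, GA3OX3 and GA3OX4 had no peak. GA2-oxidases inactivate gibberellin, and GA2OX8 had scores of 1296 and 536 inside the gene (ranks 115 and 154.5). GA2OX2 and GA2OX4 had scores of 192 and 36 in replicate 1 only. GA2OX1, GA2OX3, GA2OX6 and GA2OX7 had no peak in the mutant lists. Both methyltransferase genes, GAMT1 and GAMT2, had none either.

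Of the 5 genes for early steps of gibberellin synthesis only GA3 was bound. GA3, which encodes ent-kaurene oxidase, had scores of 271 and 59 inside the gene, from a region that also lay 870 bp from IAA28, an auxin repressor gene. GA1, GA2, KAO1 and KAO2 had peaks in replicate 1 only, with scores of 115, 92, 177 and 251. Outside the list, CYP714A1, a P450 gene linked to gibberellin inactivation, had scores of 1165 and 500 at 291 bp.

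**Figure D4:**
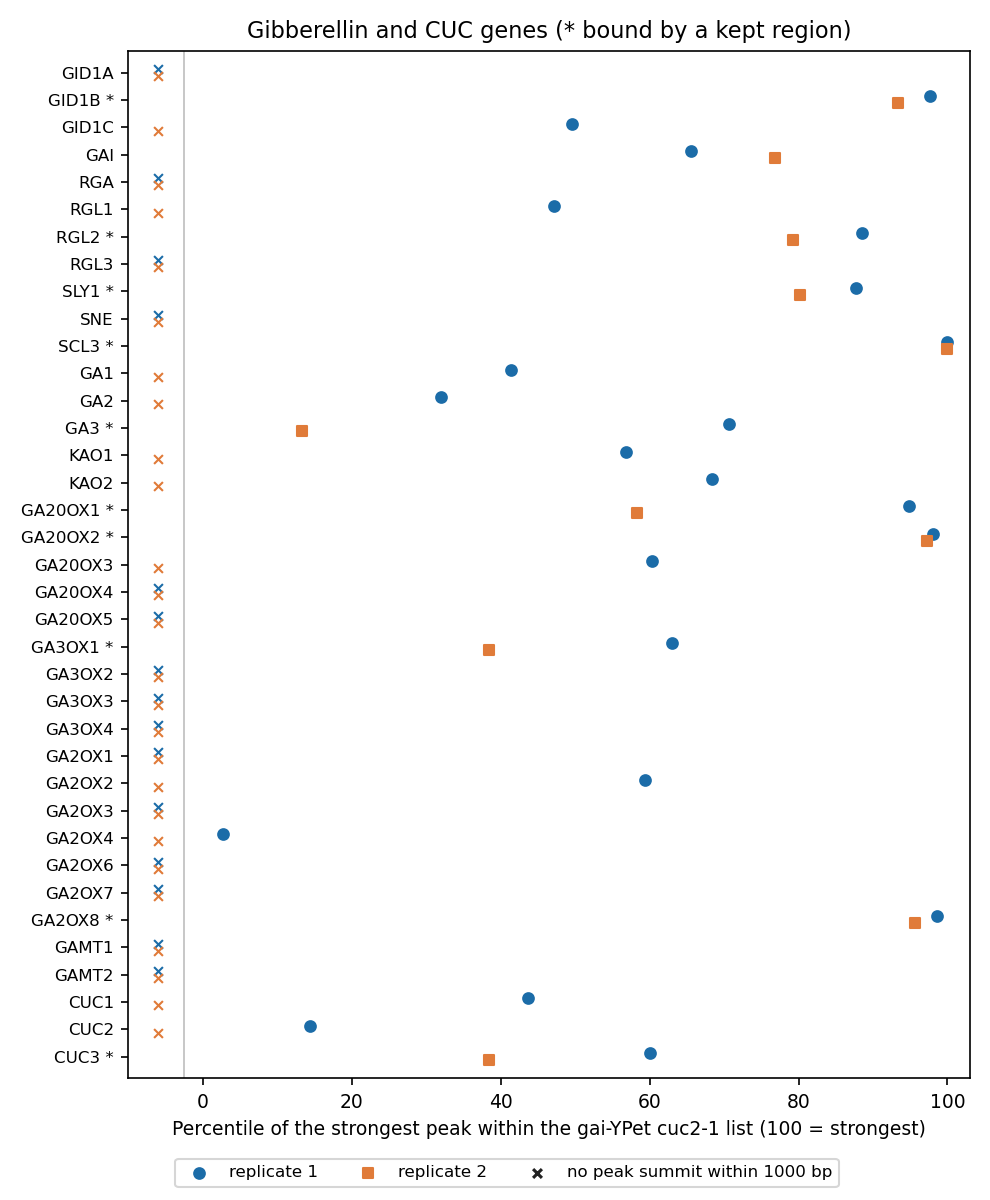
For the 34 gibberellin genes and the 3 CUC genes (y axis), points give the percentile of the strongest peak with a summit in the gene or within 1000 bp in mutant replicate 1 (circles) and replicate 2 (squares), and crosses mark lists with no such peak. SCL3, GID1B, GA20OX2 and GA2OX8 lie at a percentile of 93.4 or above in both lists, whereas 9 gibberellin genes have a circle and no square.

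The CUC genes differed in rank. CUC3 was the only one bound, inside the gene (chromosome 1, 28672640 to 28672991) with scores of 196 and 97 (percentiles 60.1 and 38.4). CUC1 had a highest score of 122 in replicate 1 (percentile 43.7) and no peak in replicate 2. CUC2 had 3 peaks in reach in replicate 1, the highest with a score of 60 (percentile 14.4), none in replicate 2, and a Ler replicate 1 peak with a score of 38. The peak lists do not show the cuc2-1 mutation itself, so they give no check of the genotype.

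Genes of transcription factors and other proteins known to bind DELLA proteins were bound in 22 of 33 cases (66.7%), with a median strength of 82.1. Of the IDD zinc finger genes in this list 12 of 14 were bound, and of the PIF genes 5 of 7. IDD9 had scores of 1610 and 850 (ranks 46 and 39) at 389 bp, and PIF6 had 1767 and 951 (ranks 24 and 27) at 503 bp. BRG3, of a small family of RING proteins that bind DELLA proteins, had scores of 1513 and 701, and inside the group of other partners 5 of 10 genes were bound. SCL27, a GRAS protein of the HAIRY MERISTEM group, had 1328 and 765. BZR1 and BES1, the factors of brassinosteroid responses, were not bound.

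Boundary, ovule and placenta genes were bound in 10 of 37 cases (27.0%), none of them in the strongest 10% of the regions. All 4 NGATHA genes, which act in style and stigma development, were bound. NGA4 had scores of 875 and 373 (ranks 389.5 and 354.5) at 355 bp, NGA3 had 552 and 201, and NGA2 had 411 and 144 inside the gene. AIL7, a relative of AINTEGUMENTA, had 276 and 165. Of the 14 ovule genes 3 were bound, namely AIL6, AIL7 and SHP2. ANT, STK, BEL1 and INO, which act in ovule initiation and identity or in integument growth, had no kept region; they were named after the values were seen. With mutant replicate 2 left out, 24 of the 37 genes were bound.

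Kept regions marked 22 of 36 floral and meristem genes (61.1%), with a median strength of 63.6. SPL4 led the list, followed by CLV1, a receptor kinase that limits the shoot meristem, with scores of 1432 and 755 at 731 bp. ERECTA, the receptor kinase gene whose mutation gives the Ler accession its name, had 913 and 459 inside the gene, and LFY, which specifies floral fate, had 805 and 366 inside it. By role, 6 of 12 floral identity genes, 7 of 11 meristem genes and 9 of 13 genes that integrate flowering signals were bound. Strengths in the list ran from 99.6 for SPL4 to 15.9 for AGL24, a MADS-box gene named after its values were seen.

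Auxin genes were bound in 28 of 66 cases (42.4%). They covered synthesis (3 of 8), transport (6 of 15), receptors (2 of 6), Aux/IAA repressors (10 of 25) and response factors (7 of 12). IAMT1 led the list, followed by TAR2, an enzyme of auxin synthesis, with scores of 1514 and 710 at 390 bp. The repressor gene IAA4 had 1292 and 594 inside the gene, and PIN3, an auxin exporter, had 1317 and 412 inside it. The 10 bound repressor genes ranged in strength from 97.6 for IAA4 to 25.0 for the weakest.

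Brassinosteroid genes were bound in 13 of 30 cases (43.3%), with the highest median strength of the 12 lists, 88.3. DWF5 shares the region of SCL3. BAK1, a co-receptor, had scores of 1612 and 882 (ranks 44 and 34) at 682 bp. BAS1, which inactivates brassinosteroids, had 1182 and 509, and the synthesis gene CYP90D1 had 1035 and 438, both inside the gene. Jasmonate genes were bound in 12 of 32 cases (37.5%), 5 of them among the 12 JAZ repressor genes. LOX2, an enzyme of jasmonate synthesis, had scores of 1202 and 450, JAZ10 had 855 and 351, JAZ1 had 855 and 313, and MYB21, a factor of stamen growth, had 648 and 376. With mutant replicate 2 left out, 21 brassinosteroid and 20 jasmonate genes were bound.

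Among cytokinin genes 10 of 50 were bound (20%), with a median strength of 71.7. Of the 7 cytokinin oxidase genes, which break the hormone down, 4 were bound. Of 15 genes of its activation 2 were bound, and of the 6 CRF genes in the list (CRF1 to CRF6) none was. Outside the list, CRF10 (423 and 57) and CRF12 (156 and 37) were bound, and are named after their values were seen. With mutant replicate 2 left out, 27 of the 50 cytokinin genes were bound. LOG8, of cytokinin activation, had scores of 1550 and 916 inside the gene (ranks 57 and 31), the response regulator ARR7 had 866 and 298, CKX5 had 619 and 314, and LOG3 had 434 and 194. Among cell cycle genes 9 of 28 were bound (32.1%), made up of 5 of 10 genes for inhibitors of cyclin-dependent kinases and 4 of 12 cyclin genes. KRP4, such an inhibitor, had 1025 and 663 inside the gene, KRP1 had 707 and 253, and CYCD3;2 had 603 and 199. None of the 6 kinase genes was bound. With mutant replicate 2 left out, the cell cycle count was 14.

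Light and clock genes were bound in 7 of 35 cases (20%), 5 of them photoreceptor genes and none of them among the 15 clock genes. PHYA had scores of 1246 and 456 at 539 bp, and PHYB had 828 and 259 at 164 bp. Ethylene and abscisic acid genes were bound in 6 of 34 cases (17.6%), with the abscisic acid receptor genes PYL5 at scores of 904 and 408 and PYL8 at 1008 and 258, and EIL1, an ethylene response factor of the EIN3 type, at 810 and 396. The contrast list of pollen, seed, root and housekeeping genes had 2 of 38 bound (5.26%), namely SCR (844 and 212) and OLEO4 (483 and 97). With mutant replicate 2 left out, the counts of these lists were 13, 15 and 5.

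**Figure D5:**
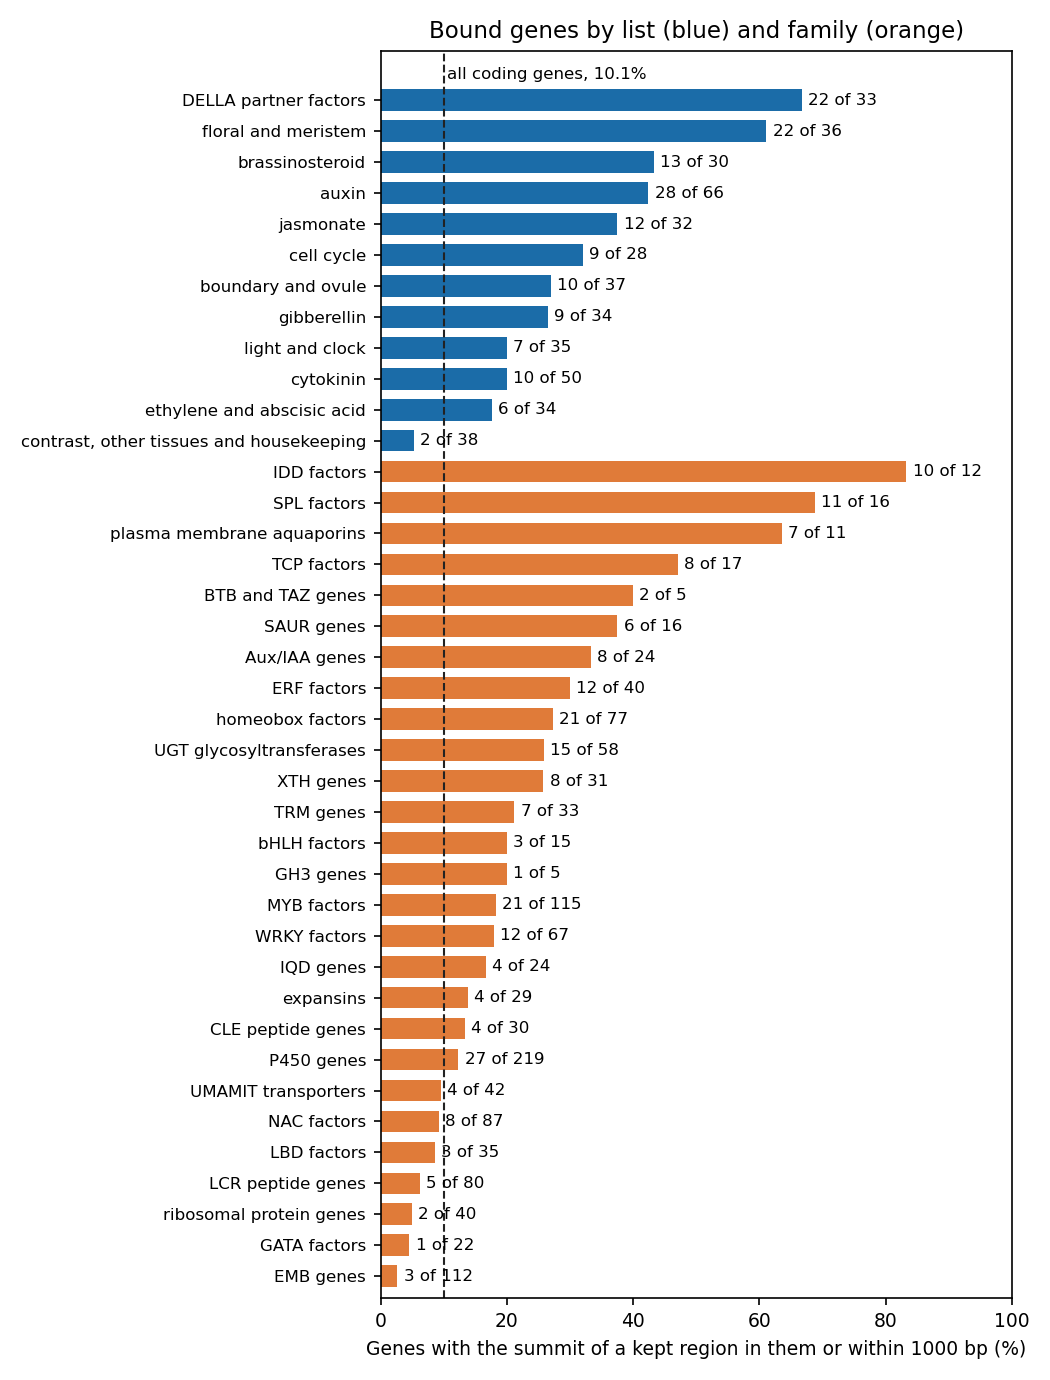
Bars give the percent of genes bound by a kept region (x axis) in 12 gene lists (blue) and 27 gene families (orange), each with its count, and the dashed line marks the 10.1% of all coding genes. The DELLA partner list (22 of 33) and the IDD (10 of 12) and SPL (11 of 16) families stand highest, and the EMB genes (3 of 112) lowest.

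Families taken by symbol spread widely around the background. Members that carry another symbol are left out of a family, so its share is of the genes so named. IDD factors were bound in 10 of 12 cases (83.3%), counted from symbols and thus with fewer genes than the list above. SPL factors, some of which promote flowering and phase change, were bound in 11 of 16 cases (68.8%). SPL8, which acts in anther and pollen sac formation, had 3 kept regions, with strengths of 91.9, 90 and 95.4. TCP factors were bound in 8 of 17 cases (47.1%), led by TCP9 (scores 666 and 605) and BRC1 (706 and 186), a repressor of branching. ERF factors were bound in 12 of 40 cases (30.0%). Genes with a symbol of the homeobox type were bound in 21 of 77 (27.3%), led by HDG1 with scores of 1739 and 723 inside the gene. These 21 include HB2 (AT3G10520), a haemoglobin gene that shares the HB symbol, so the counts are not of homeobox genes alone. MYB factors (21 of 115, 18.3%) and WRKY factors (12 of 67, 17.9%) stood nearer to the background, although WRKY47 had scores of 1224 and 1040. NAC factors, the family of CUC2, were bound in 8 of 87 cases (9.2%), led by NAC019 (957 and 445).

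Families of growth enzymes and channels varied as well. Plasma membrane aquaporin genes were bound in 7 of 11 cases (63.6%), with PIP1B at scores of 1134 and 718 after PIP2E. XTH genes, whose enzymes remodel the xyloglucan of cell walls, were bound in 8 of 31 cases (25.8%), with XTH9 at 1772 and 776 and XTH7 at 1289 and 427, both inside the gene. Expansins, which loosen cell walls, were bound in 4 of 29 cases (13.8%), led by EXPA6 with 793 and 358. Genes with a SAUR symbol, small auxin-responsive growth genes, were bound in 6 of 16 cases (37.5%) from 5 regions, led by SAUR15 with 1611 and 757. At the other end were the GATA factors (1 of 22, 4.55%), genes for ribosomal proteins (2 of 40, 5.00%) and the EMB genes, named for embryo-defective mutants (3 of 112, 2.68%).

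Some genes carried more than 1 kept region. Of the bound genes 308 had 2 regions, 27 had 3 and 1 had 4. The gene with 4 was WOX1, a WUSCHEL-related homeobox gene, with strengths from 38.8 to 90.6 and 2 summits inside it. Genes with 3 regions included the auxin exporter PIN4, IDD5, BAS1, SPL11 and the trihelix factor gene GTL1; these names were chosen after the values were seen.

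Genes for miRNAs were bound in 23 of 326 cases (7.06%), counted by the same window. The strongest was MIR398c, with scores of 1574 and 664 at 267 bp, where 3 coding genes lay within 1000 bp as well. MIR172b, whose product targets genes of the AP2 type, followed with scores of 1259 and 678 at 664 bp and no coding gene in reach. With no coding gene in reach either, MIR166d had 742 and 264, MIR166a had 619 and 250, MIR159a had 218 and 129, and MIR156c, whose product targets SPL genes, had 374 and 82. These miRNA genes were named after the values were seen, and antisense or overlapping transcripts are not told apart by a summit.

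Nearly all kept regions also had a peak in gai-YPet plants, whose lists the rule did not use. A peak of gai-YPet replicate 1 touched 3102 (97.3%), one of replicate 2 touched 3127 (98.1%), and both touched 3083 (96.7%). With a reciprocal overlap of 50% in place of 1 bp, the share for both lists was 61.6%. The share over all mutant intervals is not given, so these shares do not mark out the kept regions. The removed regions at TPPI, WRKY22, AGL44 and LBD41 also had a peak in both gai-YPet lists. Since the lists differ in length, ranks in different lists show no change in binding. At 41 regions (1.29%, Wilson 95% interval 0.95 to 1.74) no gai-YPet peak was present. Those 41 were weak, with a median strength of 16.1 and a highest of 42.8, against a median of 64.2 for all kept regions. Of them 28 lay on chromosome 2, which held 17.6% of all kept regions. Farther than 1000 bp from a coding gene lay 25 of them (61%), against 25.4% of all kept regions. The strongest of them lay on chromosome 3 from 13187287 to 13187705, 16014 bp from the nearest coding gene, AT3G32200, with scores of 95 and 126.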

How the data were processed

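Chromatin of inflorescences was precipitated with an anti-GFP antibody, and 6 ChIP libraries with 6 inputs were made from 3 genotypes. Per the submitters' processing notes, cutadapt, Bowtie2, SAMtools, MACS2 and bedtools were used with build TAIR10; the sources used here give neither versions nor settings. The authors deposited 1 peak list per ChIP replicate, with a score, a fold enrichment (a ratio to the background) and a −log10 q-value for each peak. In every line of the deposited lists the score equals 10 times the −log10 q without decimals. In the second replicate lists the decimal points of the fold and −log10 columns were damaged and were restored to 5 decimals; ranks use the score alone. No other per-sample columns were present, and no lists were identical. The lists give no reads, so depth is unknown and the precision it would give cannot be stated.

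Peaks on the nuclear chromosomes were merged where they shared at least 1 bp, with Python 3.11.15, numpy 2.4.6, pandas 2.3.3 and scipy 1.17.1, and the merging was tested on simulated data and against bedtools 2.31.1. The position of a region is the midpoint of the summits of its strongest peak in each list. Gene bounds came from RefSeq on TAIR10.1, whose coordinates are not printed; this table has no strand, and no sequences were used, so motifs were not analysed here. The reference is from another accession than Ler. Shares have Wilson intervals at the 95% level. Lists were compared by exact permutation tests of 2 against 2. Gene lists (12, with 449 distinct genes) and 27 symbol families were used, and 1 further family is not reported here; 15 symbols were assigned by locus after mismatches were seen, and 7 symbols had no gene. The regions and lists were chosen with earlier results of these data known. Genes named are those of the strongest 20 and weakest 5 regions, the 5 with the largest gap between lists in each direction, the 3 nearest to Ler peaks and the strongest 3 touching one, all gibberellin and CUC genes, and up to 4 bound members of other lists and 2 of families by strength, except where stated.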

Additional observations from a re-analysis of the deposited data

Results flagged for a closer look

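Peaks on the mitochondrial genome lie outside the nuclear comparison. The gai-YPet cuc2-1 lists held 303 such peaks in replicate 1 and 81 in replicate 2, while the Ler lists held 0 and 4, which is what drew attention to them. The mutant peaks covered 186 kb and 28.2 kb, with median folds of 1.64 and 1.57, below the nuclear medians of 2.75 and 2.64 for the whole lists. The gai-YPet lists held 126 and 20. Plastid peaks went the other way, with 0 and 3 in the mutant and 56 and 5 in Ler, and 80 and 32 in gai-YPet. The part of organelle DNA content in these counts was not tested.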

How the results depend on the processing

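Of 219 values recomputed under other settings, 179 were labelled the same, 40 moved and 0 reversed. The label does not mean that a value kept its size. Counts were labelled the same up to a change of 1.5 times, such as 3873 bound genes with a window of 2000 bp against 2780. The ratio of nuclear peak numbers was labelled the same from 12.5 to 32.2, against 20. Counts and shares have no direction to reverse, so the 0 says nothing of them. The number of kept regions (3187) was 1660 with the stronger 50% of each list, and ran from 3199 to 7808 when 1 list was left out, the highest without mutant replicate 2, so the shorter list sets the number. The share of summits beside genes (42.9%) was 28.3%, 57.4% and 63.4% with windows of 500, 2000 and 3000 bp, and 38.3% to 41.3% from 1 mutant list alone. Bound genes (2780) were 4927 with the 3000 bp window and 2783 to 5696 with 1 list left out, the highest without mutant replicate 2. Gene lists above the background numbered 11 of 12 under each setting run except the 3000 bp window, where the contrast list (7 of 38, 18.4%) also passed its background of 18%. Bound gibberellin genes ranged from 5 to 19 over the settings, and cytokinin genes from 6 to 27. Both lower ends came with summits inside genes not counted, where 7.23% of all coding genes were bound. Both upper ends came without mutant replicate 2, where 20.8% were. With summits inside genes not counted, the floral and meristem, auxin, brassinosteroid, boundary and ovule, light and clock and cell cycle lists fell to 12, 14, 8, 6, 4 and 5 bound genes. Bound genes as a whole fell as well, from 2780 (10.1% of coding genes) to 1984 (7.23%). Spearman's rho was 0.80 over regions in the stronger 50% of both lists. Kept regions with a peak of both gai-YPet lists (96.7%) were 61.6% with a reciprocal overlap of 50%, and 97.3% and 98.1% for each gai-YPet list alone. The cause of these moves was not tested. The ratio of nuclear peak numbers (20) ran from 12.5 to 32.2 with 1 list left out. With the replicate number as a block it was 20 with p = 0.5 (exact sign-flip test, the smallest that 2 pairs allow); the labels give only a number, and 1 value per list allows no check of the pairing. The share of promoters with a motif was not run. Weak binding is limited by the unknown depth of the lists.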

Other observations

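The kept regions with no gai-YPet peak were gathered on chromosome 2. Of windows of 500 kb moved in steps of 100 kb along that chromosome, the one from 3000001 to 3500000 (build TAIR10) was the first to hold the largest number of them, 21 of 41. It was chosen for that number, after the values were seen. The window held 35 kept regions with a median strength of 18, against 64.2 for all kept regions. Over single lists it held 240 and 48 peaks of the mutant, 3 and 3 of Ler and 66 and 15 of gai-YPet. The regions nearest to AT2G07702 and AT2G07641, among the weakest 5 of all, lie in it as well. Peaks on the mitochondrial genome numbered 303 and 81 in the mutant, 126 and 20 in gai-YPet and 0 and 4 in Ler. Within each replicate number both counts were highest in the mutant and lowest in Ler. Across replicates the tagged genotypes were not separated, as gai-YPet replicate 1 was above mutant replicate 2 in both counts. Whether peaks in this window relate to mitochondrial sequence was not tested, and no sequences were used.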
